A study of Rattus norvegicus with 12 samples.

Results

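The genes described here encode the parts of elastic fibres and of the microfibrils they are built on. They were followed in the lungs of rats given 2,3-butanedione (diacetyl, DA), a butter flavouring compound whose inhalation is linked to bronchiolitis obliterans. The 10 genes were taken by name from the deposited table of 23096 rat genes: elastin (Eln), fibrillin-1 (Fbn1), the fibulins Fbln1, Fbln2 and Fbln5, the microfibril-associated proteins Mfap2, Mfap4 and Mfap5, and the emilins Emilin1 and Emilin2. Each name stood on 1 line of the table. All 10 passed the filter on low counts, with at least 67 reads in every library.

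Messenger RNA was sequenced in 12 libraries of lung tissue with its bronchi from Sprague Dawley rats, labelled male, 8 weeks old and 300 g in weight. The rats behind the 6 DA libraries had received DA at 125 mg/kg into the trachea daily for 7 days, and their lungs were taken 24 h after the last dose. Those behind the 6 control libraries had received sterile distilled water by the same route, with the number of instillations not stated for them. Whether each library came from a separate rat is not spelled out in the labels, so p-values measure the spread between these samples.

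An elastic fibre has a core of cross-linked elastin laid on a scaffold of fibrillin microfibrils. Fibulins bring elastin onto the scaffold, lysyl oxidases cross-link it, and microfibril-associated proteins and emilins sit on the microfibrils or where they meet elastin. In the lung these fibres run through alveolar walls, airways and vessels and give the tissue its recoil.

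The libraries held 13723207 to 16271842 reads assigned to genes. Reads of the Y-linked genes Kdm5d, Eif2s3y and Uty were present in 6 libraries (DA replicates 1 to 4 and control replicates 1 and 2, 150.0 to 195 CPM, counts scaled to the library total, summed over 5 Y-linked genes of which 3 carried nearly all reads). They were near absent in DA replicates 5 and 6 and control replicates 3 to 6 (0.0663 to 0.644), which goes against the label male for those 6. Because the presence of Y-linked reads was uneven between the groups (4 of 6 DA, 2 of 6 control libraries), calls that were lost with a Y-linked term or in the libraries without Y-linked reads are marked. In the libraries with Y-linked reads alone no gene was called. All 8 lung epithelial markers (Sftpc, Sftpb, Sftpa1, Sftpd, Napsa, Scgb1a1, Ager and Epcam) were detected in every library. Their summed level was lowest in DA replicate 4, at 10705 CPM. The remaining DA libraries lay between 22121 and 37033, and control libraries between 22410 and 30485. Cartilage markers were near 0 in both groups, at 3.44 to 8.41 CPM summed in DA and 3.15 to 8.65 in control, and the cartilage gene Hapln1 was at 0 throughout.

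Of the 10 genes, 4 were higher and 1 was lower in DA lungs at an adjusted p under 0.05. These were Mfap4, Mfap5, Fbln5 and Fbn1 on the higher side and Emilin2 on the lower side. Elastin itself had a fitted fold change of 2.55 and was not called. The test was edgeR's quasi-likelihood test of read counts, with p adjusted for the false discovery rate over all 14517 genes tested. Over these genes 8.45% were called higher and 7.51% lower (16% either way). Of all calls 52.9% were higher, a share that was 66.1% under upper quartile scaling and 42.2% in the libraries without Y-linked reads. The median log2 fold change was 0.84 over the 10 genes and 0.03 over all genes tested. Ranges of the DA and control libraries were apart for Mfap4 and Mfap5, both with DA above. Over all genes tested, 3.11% had DA wholly above control and 2.93% had it wholly below (6.04% either way).

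**Figure D1:**
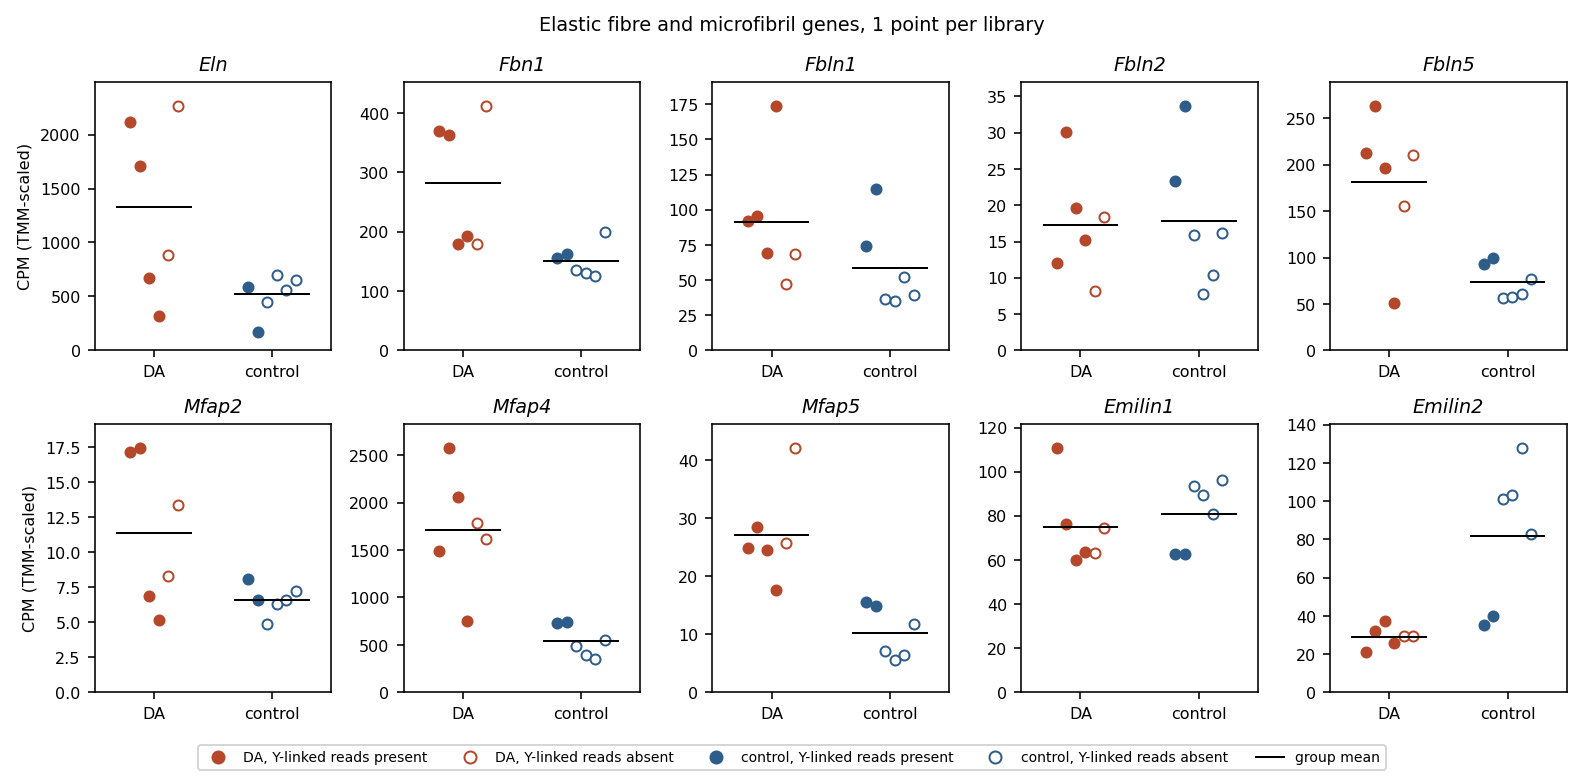
CPM (TMM-scaled, linear axis from 0) of the 10 genes in each library, DA left of control in every panel, with a line at the group mean; filled points are libraries with Y-linked reads. In Mfap4 and Mfap5 all 6 DA points stand above all 6 control points, while in Emilin2 the 2 filled control points, at 35.2 and 39.9, sit beside the DA points.

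Sequences just upstream of the start are shown for those called genes that had an entry in the RefSeq promoter table of build GRCr8. Of the 10 genes, 6 had one: Fbn1, Fbln2, Fbln5, Mfap2, Mfap5 and Emilin2, the last with 2 entries of which the first is used. Eln, Fbln1, Mfap4 and Emilin1 had none. Each window below holds the 250 bases before the annotated start, written 5′ to 3′ on the strand of the gene. Capitals mark every match, on either strand, to the E-box CANNTG, the Sp1 box GGGCGG, the SMAD element CAGAC, the AP-1 site TGANTCA or the letters TATAAA. None of these matches overlapped a match of another motif in the 4 windows.
Fbn1 (chr3:133203391-133203640, minus strand): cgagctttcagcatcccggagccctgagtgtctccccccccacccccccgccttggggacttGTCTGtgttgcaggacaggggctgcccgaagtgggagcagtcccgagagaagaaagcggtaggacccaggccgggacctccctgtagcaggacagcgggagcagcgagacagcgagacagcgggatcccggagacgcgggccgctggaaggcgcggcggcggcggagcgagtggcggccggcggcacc
Fbln5 (chr6:126742707-126742956, minus strand): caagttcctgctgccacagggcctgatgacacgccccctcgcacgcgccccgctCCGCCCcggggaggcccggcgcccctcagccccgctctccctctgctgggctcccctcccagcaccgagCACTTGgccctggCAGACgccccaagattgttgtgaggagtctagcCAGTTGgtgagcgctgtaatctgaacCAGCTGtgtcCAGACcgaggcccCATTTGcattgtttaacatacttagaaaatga
Mfap5 (chr4:157399669-157399918, plus strand): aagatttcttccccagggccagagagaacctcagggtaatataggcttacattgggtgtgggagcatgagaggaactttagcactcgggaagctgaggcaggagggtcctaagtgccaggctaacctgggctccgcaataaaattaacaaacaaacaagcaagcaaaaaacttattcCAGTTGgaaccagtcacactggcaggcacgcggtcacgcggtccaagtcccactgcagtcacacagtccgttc
Emilin2 (chr9:118667088-118667337, minus strand): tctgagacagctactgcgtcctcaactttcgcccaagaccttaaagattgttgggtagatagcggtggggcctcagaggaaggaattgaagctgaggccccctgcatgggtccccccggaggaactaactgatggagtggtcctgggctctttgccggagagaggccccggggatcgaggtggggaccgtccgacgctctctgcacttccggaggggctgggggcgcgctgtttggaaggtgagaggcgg

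No motif was found in all 3 windows of genes that rose. Fbln5 held 4 E-boxes, 2 SMAD elements and 1 Sp1 box, Mfap5 held 1 E-box, and Fbn1 held 1 SMAD element. Emilin2, the gene that fell, held no match to any of the 5 motifs in its window. Among the 33469 promoter windows of the same length, 65.5% held an E-box, 42.9% a SMAD element, 30.5% an Sp1 box, 12.9% the TATA letters and 6.34% an AP-1 site. The windows of Fbn1, Fbln5 and Emilin2 were rich in G and C, at 71.2%, 63.2% and 62.0%, and that of Mfap5 stood at 51.6%, against a median of 51.2% over all windows. A match to such short letters is a description of the window and not a binding site.

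Elastin (Eln, ENSRNOG00000001469), the protein of the fibre core, ranged widely between libraries. It stood at 321 to 2261 CPM in DA lungs with a median of 1292, and at 175 to 702 with a median of 576 in control lungs. DA replicates 6, 1 and 2 were high at 2261, 2115 and 1705, DA replicate 5 stood at 879.9, and DA replicates 3 and 4, at 670.1 and 321, lay within the control range. Control replicate 2 was the lowest of all libraries. The log2 fold change of Eln was 1.35 ± 0.45 (SE), and 5 of 6 DA values exceeded the control mean; edgeR did not call it (adjusted p = 0.0562). Leaving out DA replicate 4 gave a log2 fold change of 1.55 for Eln, which was called (adjusted p = 0.0154), and DESeq2 called it over all libraries (adjusted p = 0.0121).

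Fibrillin-1 (Fbn1, ENSRNOG00000007302) forms the backbone of the microfibril. Its level was 179 to 411 CPM in DA lungs with a median of 278, and 126 to 200.2 with a median of 145 in control lungs. The same DA replicates that were high in elastin (1, 2 and 6) were high here, at 363 to 411, while DA replicates 3, 4 and 5 lay between 179 and 193, below the highest control. Fbn1 rose by 0.90 ± 0.23 (SE) on the log2 scale, or 1.87-fold (edgeR adjusted p = 0.0248). That call was narrow. Leaving out any of DA replicates 1 and 6 or control replicates 3, 4 and 5 ended it, with edgeR adjusted p of 0.0574, 0.0534, 0.0555, 0.0572 and 0.0534 in that order. So did adding a term for Y-linked reads, at 0.0517.

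Mfap2, Mfap4 and Mfap5 encode glycoproteins of the microfibril. Mfap2 and Mfap5, which are related in sequence, bind fibrillin, and Mfap4 is a fibrinogen-related protein that binds elastin and fibrillin-1. Mfap4 (ENSRNOG00000045683) had 748 to 2570 CPM in DA lungs with a median of 1699, and 353 to 737 with a median of 519 in control lungs. All 6 DA libraries were above all control libraries, DA replicate 4 only just. Mfap4 rose by 1.66 ± 0.28 (SE) on the log2 scale, 3.15-fold (edgeR adjusted p = 0.00445), and this was the highest fold change of the 10 genes. The call held without each single library, with a log2 fold change of 1.49 to 1.81.

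Mfap5 (ENSRNOG00000015505) was much less abundant in counts, at 17.6 to 42.0 CPM in DA lungs with a median of 25.2, and 5.64 to 15.5 with a median of 9.47 in control lungs. The groups did not overlap, and control replicates 1 and 2 were the highest controls. Mfap5 rose by 1.41 ± 0.28 (SE) on the log2 scale (edgeR adjusted p = 0.0094), and the call held without each single library.

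Mfap2 (ENSRNOG00000008257) stood at 5.16 to 17.4 CPM in DA lungs with a median of 10.9, and at 4.86 to 8.10 with a median of 6.61 in control lungs. DA replicates 1, 2 and 6 were again the high ones, at 13.4 to 17.4, and DA replicates 3 and 4 lay within the control range. Its log2 fold change of 0.78 ± 0.29 (SE) was not called by edgeR (adjusted p = 0.0796). Mfap2 was called without DA replicate 4 (log2 fold change 0.93, adjusted p = 0.0246) and by DESeq2 (adjusted p = 0.0483).

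Of the 3 fibulin genes, 1 was called. Fibulin-5 (Fbln5, ENSRNOG00000050539) tethers elastin to microfibrils and to cells, and mice without it have disorganised elastic fibres. It had 51.4 to 263 CPM in DA lungs with a median of 203, and 56.8 to 99.5 with a median of 68.6 in control lungs. In 5 DA libraries Fbln5 was above every control, at 156 or more, while DA replicate 4 was below every control. Fbln5 rose by 1.29 ± 0.30 (SE) on the log2 scale, 2.45-fold (edgeR adjusted p = 0.0175), and the call held without each single library, with a log2 fold change of 1.48 when DA replicate 4 was left out.

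Fibulin-1 (Fbln1, ENSRNOG00000014137), found in elastic fibres and basement membranes, had 47.4 to 173 CPM in DA lungs with a median of 80.8, and 35.3 to 115 with a median of 45.9 in control lungs. Its highest library was DA replicate 4, the lowest DA library for elastin, Fbln5, Mfap2, Mfap4 and Mfap5. The log2 fold change of Fbln1 was 0.63 ± 0.35 (SE) and was not called (edgeR adjusted p = 0.217). With a term for Y-linked reads it was 0.35. In libraries with and without such reads it was 0.18 and 0.50, and none of these was called. Fibulin-2 (Fbln2, ENSRNOG00000007338), which binds elastin and fibrillin-1, had 8.13 to 30.0 CPM in DA lungs with a median of 16.8, and 7.76 to 33.6 with a median of 16 in control lungs. The ranges of Fbln2 lay on top of each other, at a log2 fold change of -0.05 ± 0.36 (SE; edgeR adjusted p = 0.939), and its direction turned in some of the alternative fits.

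The emilins, glycoproteins of the border between elastin and microfibrils, parted from each other. Emilin2 (ENSRNOG00000014837) had 21.2 to 37.2 CPM in DA lungs with a median of 29.6, and 35.2 to 128 with a median of 92.0 in control lungs. In 5 of 6 DA libraries it was below every control. Control replicates 1 and 2 stood apart from the other controls, at 35.2 and 39.9 against 82.9 to 128. Emilin2 fell by 1.48 ± 0.29 (SE) on the log2 scale (edgeR adjusted p = 0.00849), a call that held without each single library. Emilin1 (ENSRNOG00000008246), which in mice restrains the maturation of TGF-beta, had 60.1 to 111 CPM in DA lungs with a median of 69.2, and 62.7 to 96.3 with a median of 85.3 in control lungs. Its log2 fold change of -0.12 ± 0.16 (SE) was not called (edgeR adjusted p = 0.658).

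**Figure D2:**
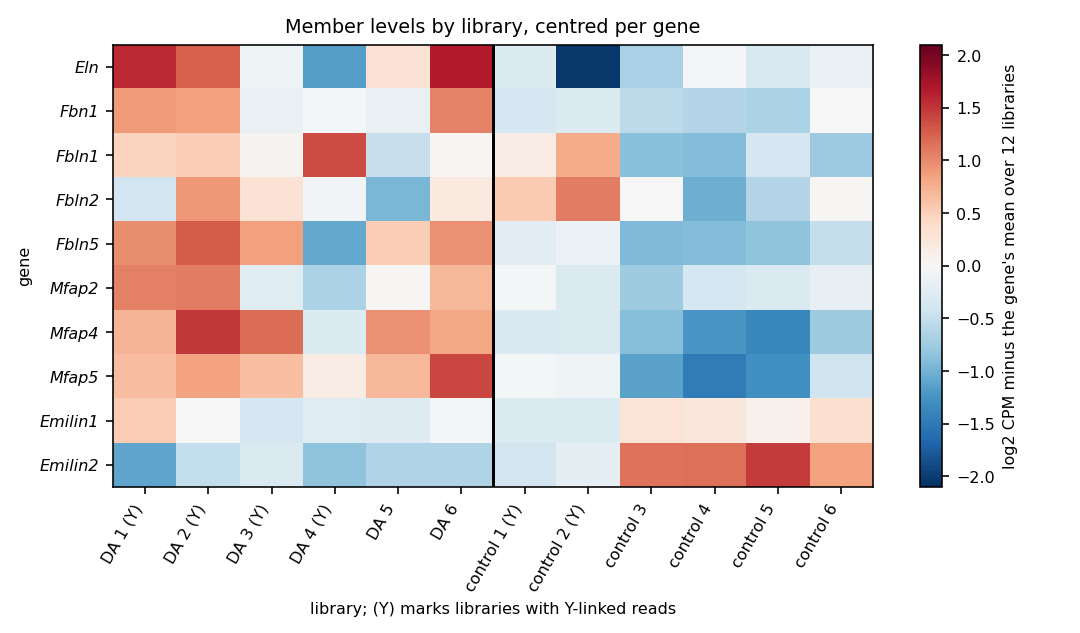
Each cell is the log2 CPM of a gene (rows) in a library (columns, DA left of the black line and control right of it) minus that gene's mean over the 12 libraries, red above and blue below. Eln, Fbn1 and Mfap2 are reddest in DA replicates 1, 2 and 6, and control replicates 1 and 2 differ from control replicates 3 to 6 in Fbln1, Mfap5 and Emilin2.

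The DA libraries thus fell into different orders for different genes. Eln, Fbn1, Fbln5, Mfap2 and Emilin1 had their 3 highest DA values in replicates 1, 2 and 6. Mfap4 was highest in DA replicates 2, 3 and 5, and Fbln1 in replicate 4. The counts of cell type markers called below stand beside 8.45% higher and 7.51% lower over all genes tested. Marker calls were not followed in the alternative fits, those for Y-linked reads included. Smooth muscle markers (8 genes, 6 higher and 0 lower by edgeR) summed to 1476 to 4504 CPM in DA and 707 to 1327 in control, highest in DA replicate 6 and lowest among DA in replicate 5. Fibroblast markers (8 genes, 3 higher and 2 lower) summed to 1812 to 4078 in DA and 1304 to 1491 in control, highest in DA replicates 1 and 6. They did not move together. Col1a1, Col1a2 and Lum were called higher (log2 fold change 1.95, 1.51 and 3.23), and Pdgfra and Tcf21 lower (-1.04 and -1.07). Dcn, Pi16 and Dpt were not called. Col1a1 and Col1a2 had the highest mean levels in DA, at 1344 and 983 CPM, against 348 and 344 in control. Cardiac muscle markers (6 genes, of which the 3 tested were all called higher) summed to 32.2 to 669 in DA and 10.5 to 25.4 in control, highest in DA replicate 4. Actc1 carried most of the typical DA sum, with a DA median of 123 CPM against 132 for the sum. DA medians were 1.86 CPM for Tnnt2, 1.83 for Tnni3 and 0.07 for Myh6 and for Myl7. Their highest DA values were 78.1, 66.4, 230 and 100 CPM in that order, all in DA replicate 4. The DA and control ranges of Tnnt2 and Tnni3 overlapped, and those of Actc1 were apart. The part of these cell types in the changes of the elastic fibre genes was not tested, and in bulk tissue more cells of a type and more RNA per cell cannot be told apart.

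Mesothelial markers (6 genes, 1 higher) summed to 249 to 596 CPM in DA and 143 to 375 in control. Endothelial markers (6 of 7 listed genes matched, 1 lower) summed to 1048 to 4557 in DA and 3146 to 4679 in control, lowest in DA replicate 4. DA replicate 4 was thus low in endothelial as in epithelial markers, and so it was in pericyte markers. Pericyte markers (5 of 6 matched, 1 lower) summed to 199 to 521 in DA and 419 to 576 in control. Cell cycle markers (6 genes, 5 higher) summed to 162 to 868 in DA and 97.1 to 197 in control. The cell cycle sum was highest in DA replicate 4, and in 4 of 6 DA libraries it exceeded every control. Leukocyte markers (6 genes, 2 lower) summed to 437 to 1178 in DA, highest in replicate 4, and to 686 to 1170 in control. The genes called lower were Csf3r and Itgam (log2 fold change -1.92 and -1.02), while Ptprc, Cd3e, Cd79a and Cd68 were not called. Ptprc weighed most in the sum, at a mean of 408 CPM in DA and 535 in control. The sum therefore need not follow each kind of leukocyte. The leukocyte sums of control replicates 1 and 2, at 724 and 686, were below those of the other controls, as Emilin2 was in these libraries, and DA replicate 4 had the highest leukocyte sum with a low Emilin2 level of 25.6. Their part in the lower Emilin2 level was not tested. Adipocyte markers were low in all libraries but control replicate 6, at 1.27 to 16.4 in DA and 3.67 to 81.1 in control.

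Levels of different genes can be compared only per gene length, for which the authors' FPKM values (reads scaled to gene length and library total) serve. How the authors defined gene length is not stated, and the order rests on it. Mfap4 was the most abundant of the 10 genes in both groups, at 554 ± 189 FPKM in DA lungs and 176 ± 55.2 FPKM in control lungs (SD, n = 6 each). Eln came next, at 123 ± 73.2 FPKM in DA lungs and 48.6 ± 17.7 FPKM in control lungs. In each of the 12 libraries Mfap4 was above Eln and Eln above every other gene of the set.

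The order then differed between the groups. Next in DA lungs was Fbln5, at 26.3 ± 10.1 FPKM, which was above the next gene, Mfap2, in 6 of 6 libraries. Next in control lungs was Emilin2, at 20.3 ± 9.06 FPKM, above Fbln5 (10.8 ± 2.88 FPKM) in 4 of 6 libraries. Below these, Mfap2, Fbln1, Fbn1 and Emilin1 averaged 8.23 to 11 FPKM in DA lungs and 5.44 to 8.84 FPKM in control lungs, and neighbours in the order changed places between libraries. Mfap5 and Fbln2 closed the order, at 6.51 ± 1.66 and 1.29 ± 0.55 FPKM in DA lungs and at 2.46 ± 1.08 and 1.34 ± 0.73 FPKM in control lungs.

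**Figure D3:**
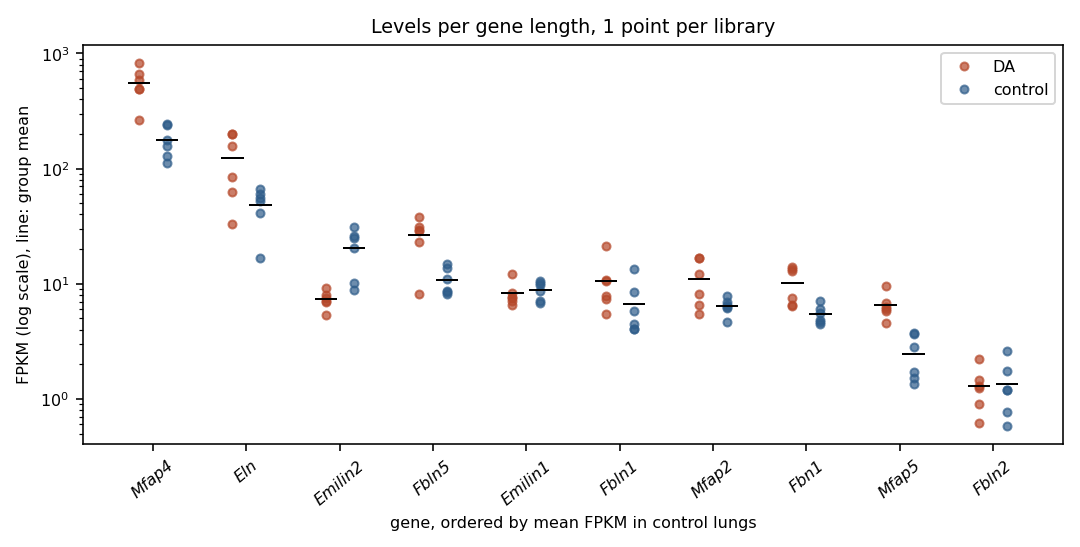
FPKM on a log axis for each gene, ordered by its mean in control lungs, with 1 point per library, DA left of control, and a line at each group mean. Mfap4 and Eln stand above the rest in both groups, and Emilin2, next in control at 20.3 FPKM on average, averages 7.32 FPKM in DA.

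Ratios of FPKM taken within a library show whether genes changed unequally. Their size rests on the deposited gene lengths, whose definition is not stated, while the log2 difference between the groups depends neither on library scaling nor on length, apart from the offset of 0.5 FPKM. Each of 5 ratios was put to a two-sided exact permutation test over the 924 ways to assign libraries, and 1 passed after adjustment over the 5. The ratio of Emilin1 to Emilin2 was 0.723 to 2.17 in DA lungs and 0.289 to 0.791 in control lungs, a difference of 1.18 on the log2 scale (exact permutation p = 0.00433, adjusted p = 0.0216), and all 6 DA values exceeded the control mean. Without DA replicate 1 the difference was 0.98 (exact permutation test, adjusted p = 0.0541). Mfap2 relative to Mfap5 was lower by log2 -0.67 in DA, in 5 of 6 libraries against the control mean (exact permutation p = 0.0498, adjusted p = 0.0938). Fbln1 relative to Fbln2 was higher by 0.63 on the log2 scale in DA, in 6 of 6 libraries against the control mean (exact permutation p = 0.0563, adjusted p = 0.0938).

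The core and its scaffold were not told apart by this test. The ratio of Eln to Fbn1 had a median of 11.9 in DA lungs and 8.57 in control lungs, a log2 difference of 0.39 (exact permutation p = 0.407, adjusted p = 0.509), and 5 of 6 DA values exceeded the control mean. The ratio of Fbln5 to Eln was 0.147 to 0.462 in DA lungs and 0.134 to 0.889 in control lungs, a log2 difference of -0.03 (exact permutation p = 0.957, adjusted p = 0.957). The lowest ratio of Eln to Fbn1 in each group was that of DA replicate 4, at 4.13, and of control replicate 2, at 2.67. Without control replicate 2 the difference for Fbln5 to Eln was 0.35, still not called.

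**Figure D4:**
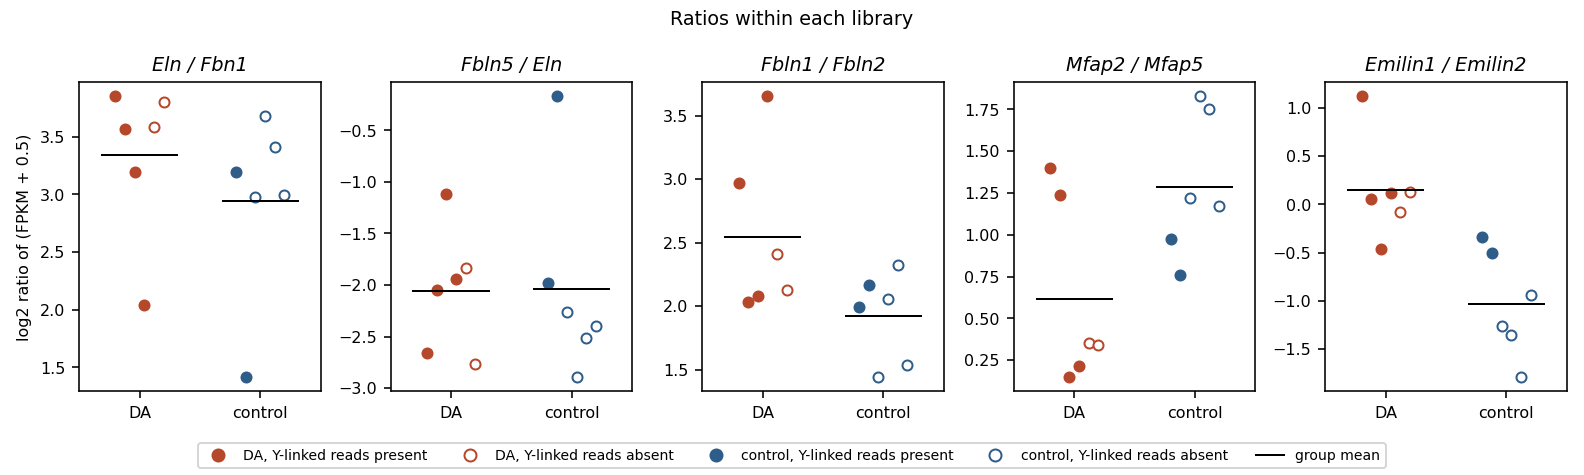
Log2 ratio of FPKM + 0.5 for 5 pairs of genes, 1 point per library, DA left of control, filled where Y-linked reads were present, with a line at the group mean. Emilin1 over Emilin2 is higher in DA (mean 0.15 in DA and -1.03 in control), while Fbln5 over Eln has nearly equal means (-2.06 in DA and -2.04 in control).

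Levels of some of these genes are given here by the presence of Y-linked reads, as means of 2 or 4 libraries. The means are a description, and the fits within libraries with and without such reads follow them. Mfap5 averaged 23.9 CPM in DA libraries with such reads and 33.8 in DA libraries without, against 15.2 and 7.74 in control libraries with and without them. Mfap4 averaged 1716 and 1699 CPM in DA libraries with and without Y-linked reads, against 736 and 446 in control libraries. Fbln5 averaged 181 and 183 CPM in DA libraries with and without them, against 96.4 and 62.9 in control libraries. For these 3 genes the fitted fold change was smaller among libraries with Y-linked reads, a difference that was not called by edgeR after adjustment. Emilin2 averaged 29.0 and 29.6 CPM in DA libraries with and without Y-linked reads, against 37.6 and 104 in control libraries. In the 6 libraries with Y-linked reads alone (4 DA, 2 control), 0 of the 10 genes were called by edgeR, where 0 of 15007 genes (0%) were called either way. At an unadjusted p under 0.05 there were 1447 genes in that fit, Mfap4 and Mfap5 among them. There the log2 fold changes were 1.22 for Mfap4, 0.65 for Mfap5, 0.90 for Fbln5, 0.80 for Fbn1, 1.65 for Eln and -0.38 for Emilin2.

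In the 6 libraries without Y-linked reads (2 DA, 4 control), Eln, Fbln5, Mfap4 and Mfap5 were called higher and Emilin2 lower by edgeR. Over all genes in that fit 4.82% were called higher and 6.59% lower. The log2 fold changes were 1.41 for Eln, 1.53 for Fbln5, 1.92 for Mfap4, 2.12 for Mfap5 and -1.82 for Emilin2, and Fbn1 was not called (0.99, adjusted p = 0.0902). When the fit over all 12 libraries carried a Y-linked term, Fbln5, Mfap4 and Mfap5 were called higher and Emilin2 lower (edgeR adjusted p of 0.0107 to 0.0369), beside 3.78% of genes called higher and 3.94% lower. The difference of the DA effect between libraries with and without Y-linked reads was itself tested and called in 0 of 14517 genes (0%). At an unadjusted p under 0.05 it reached 1137 genes, among them Mfap5 (log2 -1.48, adjusted p = 0.504), Emilin1 (0.69, adjusted p = 0.63) and Emilin2 (1.44, adjusted p = 0.392).

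Genes that assemble, cross-link, cut or bind elastic fibres were taken from 7 lists with 66 genes, of which 64 were matched and 58 tested. Of these, 7 were higher and 7 lower in DA by edgeR, with a median log2 fold change of 0.15, set against 8.45% higher and 7.51% lower over all genes. Loxl2 had the highest fold change of the called genes. Of 5 lysyl oxidase genes, 2 rose and 0 fell. Loxl1, the lysyl oxidase tied to elastin, rose by 1.32 ± 0.26 (SE) on the log2 scale (edgeR adjusted p = 0.00849), with 60.5 to 213 CPM in DA lungs and 39.3 to 80.0 in control lungs. Loxl2, which also cross-links collagen, rose by 1.78 ± 0.26 (SE; edgeR adjusted p = 0.00297), and its DA libraries were all above control. Lox itself, named after its value was seen, had a log2 fold change of -0.20 (edgeR adjusted p = 0.761).

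Of 12 tested relatives of the fibrillin, fibulin and emilin families, 3 rose and 2 fell, beside 8.45% higher and 7.51% lower over all genes tested. Efemp2, or fibulin-4, which brings lysyl oxidase to elastin, had 36.0 to 62.5 CPM in DA lungs and 21.8 to 27.4 in control lungs. All 6 DA libraries were above control, and Efemp2 rose by 0.95 ± 0.15 (SE) on the log2 scale (edgeR adjusted p = 0.00437). The emilin relative multimerin-1 (Mmrn1), a protein of platelets and endothelium, fell by 1.02 ± 0.22 (SE) on the log2 scale (edgeR adjusted p = 0.0114). Of the 4 latent TGF-beta binding proteins, which attach to microfibrils, 1 rose and 0 fell. Ltbp2 rose by 1.24 ± 0.34 (SE; edgeR adjusted p = 0.0291). Dropping DA replicate 1 or 6, or control replicate 3, 4, 5 or 6, took it past the threshold (adjusted p of 0.0548 to 0.0661). So did a Y-linked term (edgeR adjusted p = 0.0586) and limma on log2(FPKM + 0.5) (adjusted p = 0.0546).

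Among 9 tested ADAMTS and ADAMTS-like genes whose families bind or cut fibrillin, 1 rose and 1 fell (8.45% and 7.51% over all genes tested). Adamts6, a secreted metalloproteinase, rose by 0.89 ± 0.23 (SE; edgeR adjusted p = 0.0232), which became 0.0546 when DA replicate 1 was dropped and 0.0551 when control replicate 4 was. Adamtsl1, a secreted relative without protease activity, fell by 0.89 ± 0.19 (SE; edgeR adjusted p = 0.0112), with all 6 DA libraries below control. It was not called in the libraries without Y-linked reads (log2 fold change -0.80, edgeR adjusted p = 0.135).

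Proteases that cut elastin showed 0 higher and 1 lower of 8 tested, and their inhibitors 0 higher and 1 lower of 8. Over all genes tested, 8.45% were called higher and 7.51% lower. The gelatinase gene Mmp9 fell by 1.98 ± 0.58 (SE; edgeR adjusted p = 0.0363), with 5.22 to 14.5 CPM in DA lungs and 6.62 to 96.7 in control lungs. That call rested on few libraries: dropping any of DA replicates 1, 3, 4, 5 and 6 or control replicates 3 to 6 ended it (highest adjusted p 0.0820). A Y-linked term ended it too (edgeR adjusted p = 0.315), as did the replicate block (0.201), limma on log2(FPKM + 0.5) (0.103) and voom (0.121). The direction of Mmp9 was the opposite within libraries with Y-linked reads, at 0.50. The macrophage elastase gene Mmp12, named after its value was seen, stood at a log2 fold change of 1.44 (edgeR adjusted p = 0.132). Cystatin C (Cst3), an inhibitor of cathepsins, fell by 0.68 ± 0.20 (SE; edgeR adjusted p = 0.0381), which dropping any of DA replicates 1, 2, 3 and 6 or control replicates 1, 3, 4, 5 and 6 moved to 0.0506 to 0.0732. Cst3 was also not called with a Y-linked term (edgeR adjusted p = 0.0799) or in the libraries without Y-linked reads (log2 fold change -0.44, adjusted p = 0.0909).

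Of 12 receptor genes, 0 were higher and 2 lower, beside 8.45% higher and 7.51% lower over all genes tested. Itgb3, an integrin chain that binds fibrillin-1 and other matrix proteins, fell by 0.79 ± 0.19 (SE; edgeR adjusted p = 0.0202). Its call was lost with the replicate block (edgeR adjusted p = 0.0526) and with a Y-linked term (0.0627), and its log2 fold change was -0.37 in the libraries with Y-linked reads. Itga4, an integrin chain found on leukocytes, fell by 0.96 ± 0.30 (SE; edgeR adjusted p = 0.0462), which dropping any of DA replicates 1, 3, 5 and 6 or control replicates 2 to 6 moved to 0.0664 to 0.0969. A Y-linked term (edgeR adjusted p = 0.0730) and upper quartile scaling (0.0531) ended the call of Itga4 too. Its log2 fold change was -0.50 in the libraries with Y-linked reads and -1.72 in those without.

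**Figure D5:**
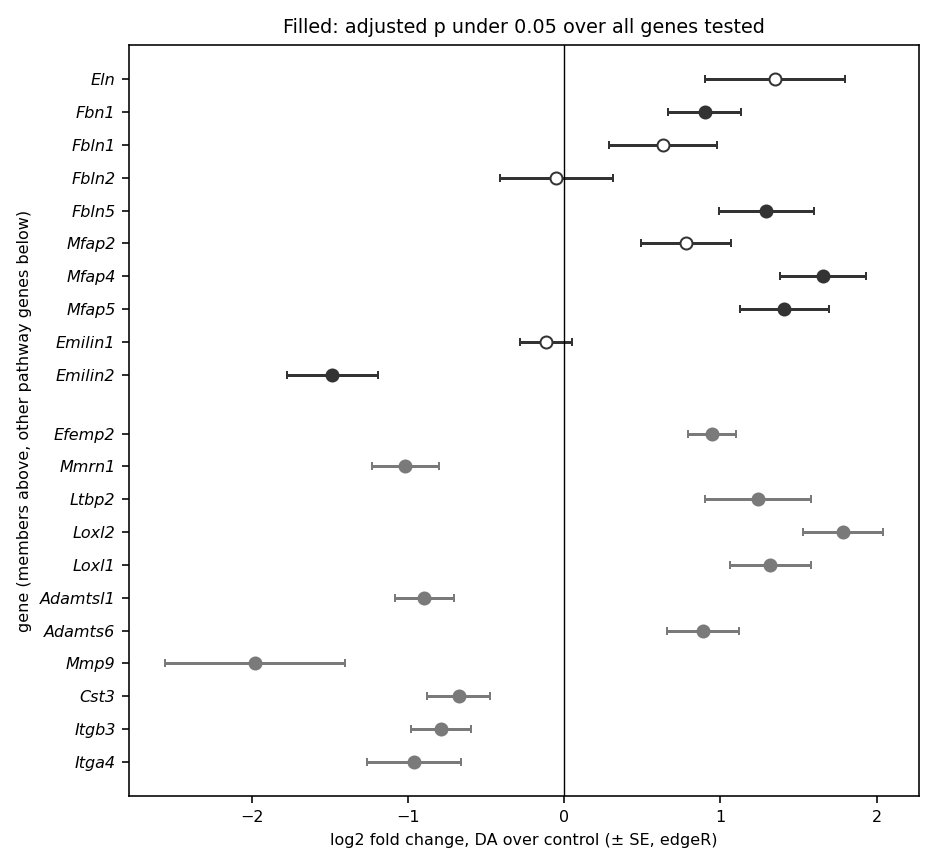
Log2 fold change of DA over control with its standard error for the 10 genes (upper block) and for the named genes of the 7 lists (lower block); filled points have an adjusted p under 0.05 over all genes tested. Mfap4 at 1.66 is the highest and Emilin2 at -1.48 the lowest of the 10, with Eln at 1.35 open.

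The genes whose profile over the 12 libraries was nearest to that of Eln were picked by the root mean square difference of centred log2 CPM, among 11959 genes. They were Adm (0.50), C1qtnf2 (0.57), Loxl1 (0.59), Aoc1 (0.60) and Calu (0.61). The profiles kept the difference between DA and control, so this choice itself favoured genes that were higher in DA, as Eln was. The calls of these genes below are therefore a description and no separate support. Adm encodes the vasodilator peptide adrenomedullin, Aoc1 the diamine oxidase that degrades histamine, and Calu a calcium-binding protein of the secretory pathway. Of these, Loxl1 and Calu were called higher in DA, Calu by 1.1 ± 0.20 (SE; edgeR adjusted p = 0.00607). Adm (0.77, adjusted p = 0.135), C1qtnf2 (0.84, adjusted p = 0.073) and Aoc1 (1.36, adjusted p = 0.069) were not called by edgeR over all libraries. DESeq2 called C1qtnf2 (adjusted p = 0.0386) and Aoc1 (0.0209), voom with quality weights called Adm (0.0462), C1qtnf2 (0.0167) and Aoc1 (0.0166), and the edgeR fit with the replicate block called Aoc1 (0.0457). In the libraries without Y-linked reads edgeR called Adm (0.0467). Without DA replicate 4 these 3 were called (adjusted p = 0.0421, 0.00835 and 0.0367), as was Aoc1 without control replicate 6 (adjusted p = 0.0348). Among the 10 genes themselves, Mfap2 lay nearest to Eln (0.63, with 5 other genes nearer) and Fbn1 next (0.70, with 34 nearer), while Emilin2 was farthest (1.55).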

How the data were processed

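Per the submitters' processing notes, the tools were HISAT2 2.2.1 and HTSeq 2.0.2 on the rat build mRatBN7.2; strand setting and annotation release are not given in the sources used here. The deposited table holds raw read counts per Ensembl gene and FPKM values that the authors derived from them: each FPKM equals its count scaled by the deposited gene length and library total. Tests on the counts used edgeR 4.0.16 in R 4.3.3 (filterByExpr, TMM scaling, two-sided quasi-likelihood F test, no term besides group, Benjamini-Hochberg adjustment over all 14517 genes tested, threshold 0.05). Standard errors are the log2 fold change over the root of F. CPM values are TMM-scaled except for the Y-linked sums, which use raw library totals; libraries under 5 count as without Y-linked reads. Y-linked genes were Ddx3y, Eif2s3y, Kdm5d, Uty and Usp9y.

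Ratios were tested by exact permutation. Named genes were the 10 genes, from each list the 2 called genes with the smallest adjusted p (or fewer where fewer were called), and the 5 genes nearest to Eln with a mean FPKM of at least 1. Genes, lists and alternatives were chosen with earlier results of these data known. Other genes named in passing (Lox, Mmp12) were chosen after their values were seen. Thsd4, Timp2, Higd1b and Cldn5 had no line of that name. Alternatives were DESeq2 1.42.0, limma 3.58.1 on log2(FPKM + 0.5), voom with quality weights, other scalings and filters, a replicate block, terms or splits for Y-linked reads, and leaving out each library. Promoter windows came from RefSeq, build GRCr8, and were matched by symbol; coordinates of that build are given for them alone.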

Additional observations from a re-analysis of the deposited data

Results flagged for a closer look

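In 60 groups of 6 values (CPM of the named genes and log2 ratios), 5 held a library far from the others, where chance flags about 1 in 20 groups. Emilin1 stood at 111 CPM in DA replicate 1, against 76.2 in the next DA library. The log2 ratio of Eln to Fbn1 was 2.04 in DA replicate 4, against 3.19 or more in the other DA libraries. Control replicate 2 stood apart in 3 values. Its log2 ratio of Eln to Fbn1 was 1.41, against 2.98 or more in the other controls, its log2 ratio of Fbln5 to Eln was -0.17, against -1.98 or less, and its Cst3 level was 485 CPM, against 689.6 or more.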

How the results depend on the processing

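The fold changes of Mfap4, Mfap5, Fbln5 and Emilin2 kept their direction and their call under all settings run except in the libraries with Y-linked reads alone (1.22, 0.65, 0.90 and -0.38). Fbn1 was not called there (0.80), in the libraries without Y-linked reads (0.99) or with the Y-linked term (0.90), and without 1 library it spanned 0.76 to 1.00. Eln was called by DESeq2 (1.34), under upper quartile scaling (1.41), with voom quality weights (1.44), in the libraries without Y-linked reads (1.41) and without DA replicate 4, and spanned 1.12 to 1.55 without 1 library. Mfap2 was called by DESeq2 (0.77), voom (0.87) and without DA replicate 4, and spanned 0.61 to 0.93. Fbln2 turned in limma on log2(FPKM + 0.1) (0.0050), voom (0.15) and the libraries without Y-linked reads (0.072), and spanned -0.30 to 0.22 without 1 library. Emilin1 (0.30) and Mmp9 (0.50) turned in the libraries with Y-linked reads. The log2 ratio difference of Fbln5 to Eln spanned -0.21 to 0.35 without 1 library. That of Emilin1 to Emilin2 spanned 0.98 to 1.32, and was 0.63, without a test, in the libraries with Y-linked reads.

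Over all genes, 1226 were called higher and 1090 lower. Calls higher and lower numbered 1927 and 1635 by DESeq2, 2034 and 1932 with voom, 549 and 572 with the Y-linked term, 0 and 0 in the libraries with Y-linked reads (0 and 0 among the 10 genes) and 716 and 980 in those without. Leaving out 1 library gave 578 to 1558 higher and 578 to 1461 lower, and 3 to 6 of the 10 genes higher. Deviations of same-numbered libraries correlated at -0.26 to 0.30, not all above 0.1 (3 of 6 DA libraries matching their own number best), so the numbers were not taken to pair samples. The replicate block gave 677 higher and 757 lower, with the same calls among the 10 genes. It also ended the calls of Mmp9 and Itgb3 and gave one to Aoc1. The cause of these shifts was not tested. Each of the 10 genes had 67 reads or more per library; Fbn2 with at most 24 reads is less precise.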

Other observations

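These genes were chosen after their values were seen. RNA of 3 neutrophil protease genes (Elane, Prtn3 and Ctsg), of the metalloproteinase gene Mmp7 and of the serpin inhibitor gene Serpina1 was barely detected in these lungs. Protein was not measured. Elane reached at most 33 reads, Prtn3 24, Ctsg 19, Mmp7 12 and Serpina1 3 in any library, all below the filter on low counts. The fetal fibrillin gene Fbn2 was low, with at most 24 reads per library, and was called higher in DA (log2 fold change 1.36, edgeR adjusted p = 0.0432). Fbln7, a further fibulin, averaged 5.21 ± 2.75 CPM in DA and 1.95 ± 0.65 in control (SD, n = 6 each; log2 fold change 1.41, edgeR adjusted p = 0.0267). For Fbn2 and Fbln7 the DA and control ranges overlapped. Their calls were not followed in the alternative fits or with single libraries left out. Efemp1, or fibulin-3, averaged 159 ± 70.6 CPM in DA and 154 ± 38.4 in control and was not called (edgeR adjusted p = 0.929).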
